A study of Homo sapiens with 6 samples.

Results

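The E2 ubiquitin-conjugating enzymes are the middle step of the ubiquitin cascade, and their genes were followed here in HCT116 cells, a human colorectal carcinoma line, after transfection with a miR-8485 mimic. The E2 genes were taken as the protein-coding genes of the deposited table whose symbol starts with UBE2 and a letter, which gave 37 of the 58735 genes listed and of the 19951 protein-coding ones. The 3 CTR libraries came from cells given a control transfection whose sequence and dose the sources used here do not give, and the 3 miR-8485 libraries came from cells given 50 nM of the mimic with the reagent DMRIE-C. All cells were wild type and one line, without a further allele or agent, and were collected 48 h after transfection where the methods give no other time. The libraries were stated to be independent biological replicates. The RNA came from whole cultures, so that fewer cells in a phase of the cell cycle and less RNA per cell cannot be told apart.

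Ubiquitin is activated by an E1 enzyme, passed to the active-site cysteine of an E2, and attached to a substrate with the help of an E3 ligase, which chooses the substrate. The E2 often sets which lysine of ubiquitin carries the next one and so what the chain does. UBE2C starts and UBE2S lengthens the chains that the anaphase-promoting complex (APC/C) puts on mitotic regulators, and UBE2T works with the ligase FANCL in the repair of DNA crosslinks. UBE2C, UBE2S and UBE2T are called mitotic E2s below because they were set against the other E2 genes as one group, although the known work of UBE2T is in DNA repair.

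The mimic is a short RNA made to act as the miRNA. The strand given in the methods has 17 bases and may be shorter than the mature miRNA, which was not checked. It is shown with its seed, bases 2 to 8, in capitals because the seed sites below are read from it.
miR-8485 mimic: cACACACAcacacguau
The 7-base DNA word that pairs with this seed is TGTGTGT. Among the E2 genes it was most frequent in the 3′ UTRs of UBE2H and UBE2L6, whose changes lay at opposite ends of the range. The longest repeat blocks of UBE2H, on the minus strand of chromosome 7 at chr7:129833996-129834024 and chr7:129832443-129832471, and the blocks of UBE2L6, on the minus strand of chromosome 11 at chr11:57552207-57552235 and chr11:57552173-57552201, are given 5′ to 3′ as transcribed (GRCh38), with the word and its overlapping copies in capitals.
UBE2H, first block: tttttggTGTGTGTGTGTGTGTattgtgc
UBE2H, second block: gagcgagagTGTGTGTGTGTccatctaag
UBE2L6, first block: cattagttTGTGTGTGTGTGTggtggagg
UBE2L6, second block: gagctatgagTGTGTGTGTtgtgtatgga

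Expression was measured by RNA-seq and given by the authors as FPKM, the fragments on a gene divided by the length of the gene and by the total fragments of the library. The libraries held 17473874 to 17888110 fragments on listed genes in CTR and 17710376 to 18480047 in miR-8485. Of these, 59871 to 63265 lay on E2 genes in CTR and 52350 to 54058 in miR-8485, with at least 146 fragments on every tested E2 gene in every library. Of the epithelial markers, EPCAM (128 to 148 FPKM in CTR), CDH1, KRT8, KRT18, KRT19, CLDN4 and CDX2 were at 15.5 FPKM or more in every CTR library, whereas LGALS4 and VIL1 were below 0.1 FPKM. The leukocyte marker PTPRC was at 0 in CTR, the endothelial marker PECAM1 was at most 0.0855 FPKM and the fibroblast marker COL1A1 was at 4.05 to 4.38 FPKM. In miR-8485 the keratins KRT8 (543 to 561 FPKM, against 817 to 873), KRT18 (286 to 297, against 539 to 609) and KRT19 (747 to 801, against 1090 to 1230) were lower. CLDN4 was lower as well (67.2 to 71.0 FPKM, against 86.8 to 92.7), whereas EPCAM and CDH1 overlapped between the groups. CDX2 was higher (27.0 to 29.4 FPKM, against 15.5 to 16.4), and COL1A1 was at 6.27 to 6.4 FPKM. Their part in the results below was not tested.

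After transfection of the mimic, more E2 genes fell than rose. Of the 31 E2 genes with a mean of at least 1 FPKM, 16 were downregulated (51.6%), 3 were upregulated (9.68%) and 12 were neither. Over all 12349 tested genes, 30.5% were downregulated, 29.1% upregulated and 59.6% either, and over the 10721 protein-coding ones 33.6% were downregulated and 28.4% upregulated. A gene was called by limma on log2(FPKM + 0.1), two-sided, at a Benjamini-Hochberg adjusted p under 0.05 over all tested genes, and every fold change below is on that scale. The median log2 fold change was -0.17 over the tested E2 genes and -0.0041 over all genes, and 26 of the 31 values were below 0. The libraries of both groups did not overlap for 24 of the 31 genes (77.4%). Over all tested genes this share was 66.5%, and over the protein-coding ones 69.5%. Of the 24 E2 genes, miR-8485 was the lower group in 20. Rescaled to TPM, which has the same sum in every library, the median of all genes moved by -0.1124 and 24 E2 genes were downregulated and 3 upregulated, and the share of upregulated genes among all called genes went from 48.8% to 35.6%.

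**Figure D1:**
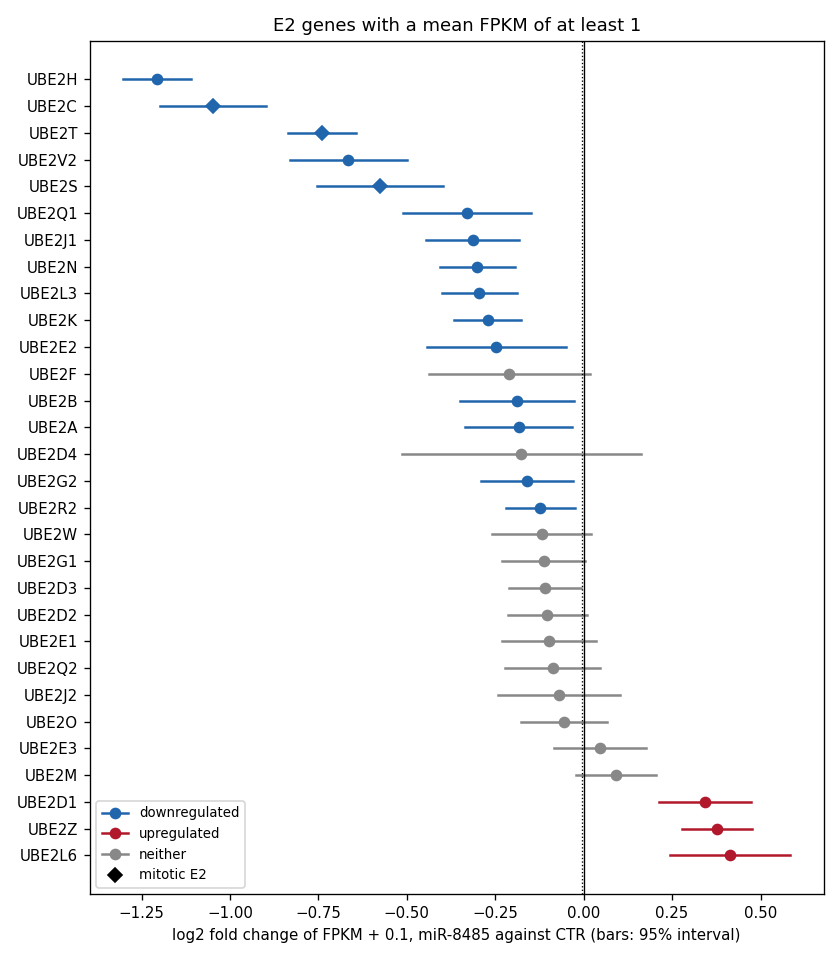
Log2 fold change of FPKM + 0.1, miR-8485 against CTR, for 30 of the 31 tested E2 genes, with 95% intervals from limma and the calls in color. Points left of the solid line at 0 are lower in miR-8485, the dotted line is the median of all tested genes (-0.0041), and the diamonds mark UBE2C, UBE2S and UBE2T, which lie among the 5 lowest values.

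All 3 mitotic E2s were downregulated. UBE2C (ENSG00000175063, chr20:45812576-45816957, plus strand, hg38) was at 106.3, 94.1 and 96.71 FPKM in CTR replicates 1 to 3 and at 49.31, 49.7 and 44.58 FPKM in miR-8485 replicates 1 to 3. Every miR-8485 library was thus below every CTR library, and the mean went from 99.1 ± 6.45 to 47.9 ± 2.85 FPKM (SD, n = 3 each). The log2 fold change of UBE2C was -1.05 (SE 0.06, limma adjusted p = 1.45e-05), or 0.484 times the CTR level, from 2189 to 2466 fragments per CTR library and 1092 to 1156 per miR-8485 library.

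UBE2S (ENSG00000108106, chr19:55399745-55407777, minus strand) had the highest level of all E2 genes in both groups. It was at 132.1, 113.1 and 117.2 FPKM in CTR and at 87.49, 80.12 and 75.42 FPKM in miR-8485. The groups did not overlap, and CTR replicate 1 was the highest library for UBE2S, UBE2C and UBE2T. The log2 fold change of UBE2S was -0.58 (SE 0.08, limma adjusted p = 0.000488), the smallest fall of the 3.

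UBE2T (ENSG00000077152, chr1:202331657-202341980, minus strand) was at 35.18, 33.9 and 33.38 FPKM in CTR and at 20.22, 20.55 and 20.44 FPKM in miR-8485. The spread within each group was small beside the gap between them. Its log2 fold change was -0.74 (SE 0.04, limma adjusted p = 1.02e-05), or 0.599 times the CTR level. Leaving out any single library kept the log2 fold change of UBE2C between -1.08 and -0.995, that of UBE2S between -0.63 and -0.51 and that of UBE2T between -0.76 and -0.72, all still called.

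The median log2 fold change of the 3 mitotic E2s was -0.74, against -0.14 for the 28 other tested E2 genes, of which 13 were downregulated, 3 upregulated and 12 neither. Set against the CTR mean of each gene, each miR-8485 library had a median of -0.75 to -0.73 for the mitotic E2s, while the CTR libraries had -0.07 to 0.10. For the other E2 genes the library medians were -0.16 to -0.13 with the mimic and -0.04 to 0.01 without it. These medians are descriptions, since the 3 genes were set apart with their changes known.

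**Figure D2:**
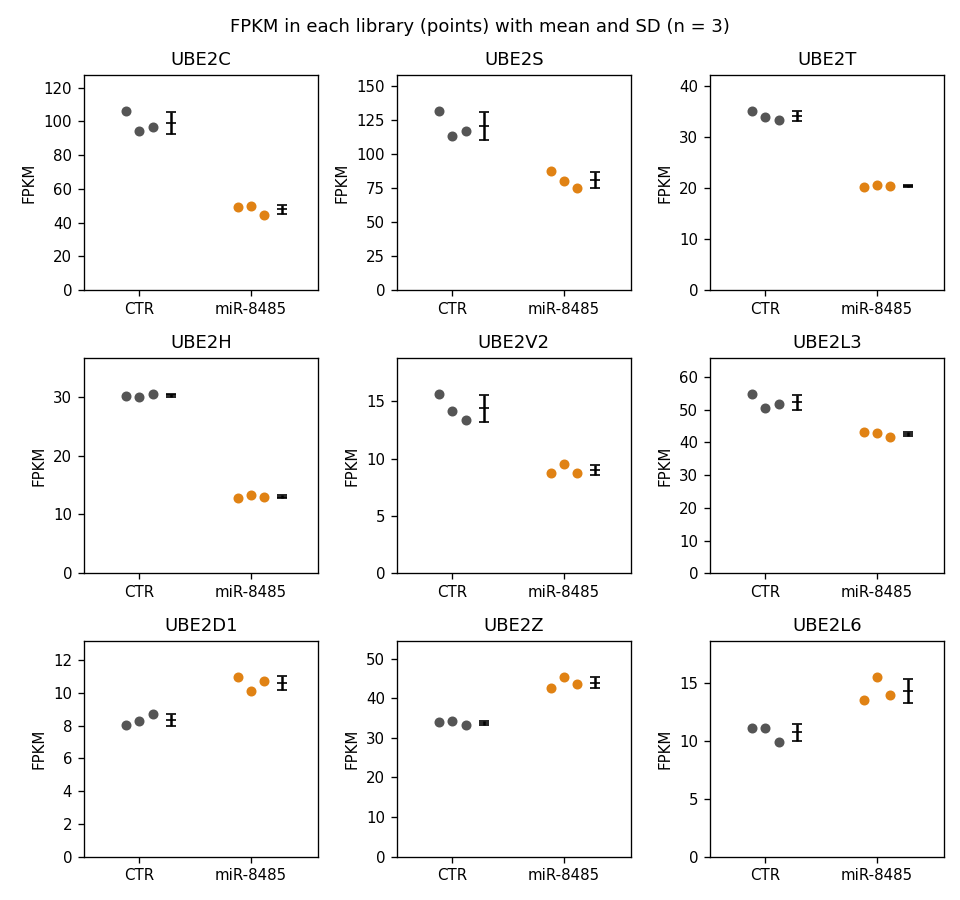
FPKM of 9 E2 genes in each library, one panel per gene with its own axis from 0. Points are libraries (gray CTR, orange miR-8485), and bars are the mean and SD of 3 libraries. The top row holds the mitotic E2s, the middle row UBE2H, UBE2V2 and UBE2L3, which also fell, and the bottom row the upregulated UBE2D1, UBE2Z and UBE2L6, and the groups overlap in none of the 9 panels.

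The mitotic E2s made up a smaller part of all E2 transcripts after the mimic. The FPKM of the 37 genes summed to 847.3 ± 30.1 in CTR and to 691.9 ± 13.8 in miR-8485 (SD, n = 3 each), and the groups did not overlap. UBE2C, UBE2S and UBE2T accounted for 254.0 ± 17.3 of this in CTR and 149.3 ± 8.36 in miR-8485, while the 34 other genes summed to 593.4 ± 13.1 and 542.6 ± 5.98. The mitotic share was 31.1%, 29.3% and 29.5% in CTR and 22.4%, 21.6% and 20.8% in miR-8485. The share does not depend on the scaling of a library, whereas the sum does. In the order of FPKM levels, UBE2S was first in both groups, and UBE2C went from rank 2 to rank 3, below UBE2M, which encodes the E2 for the ubiquitin-like protein NEDD8.

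**Figure D3:**
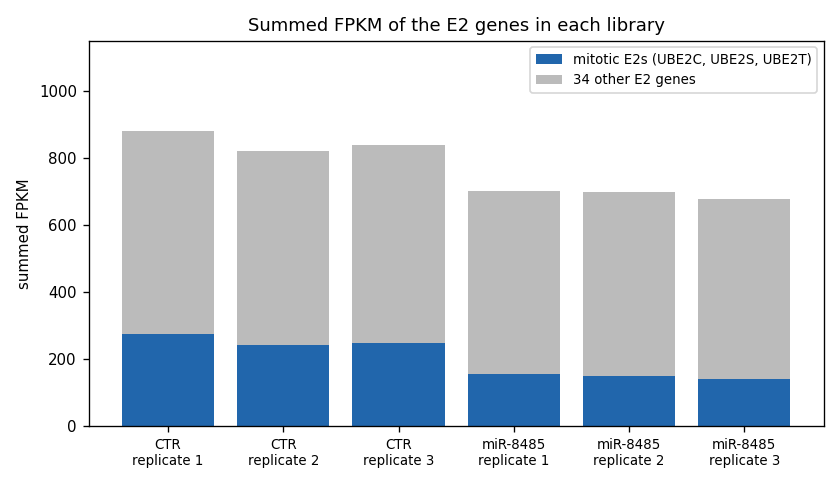
Summed FPKM of the E2 genes in each of the 6 libraries, with UBE2C, UBE2S and UBE2T in blue and the 34 other genes in gray. The blue part is 241.1 to 273.6 FPKM in CTR and 140.4 to 157.0 FPKM in miR-8485.

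The largest fall of an E2 gene was that of UBE2H (ENSG00000186591, chr7:129830732-129952949, minus strand), which encodes the E2 of the CTLH ligase, known for its part in red cell maturation. It was at 30.14, 30.02 and 30.48 FPKM in CTR and at 12.78, 13.32 and 13.01 FPKM in miR-8485. Both groups were tight, with 3532 to 3587 fragments per CTR library and 1493 to 1612 per miR-8485 library. The log2 fold change was -1.21 (SE 0.04, limma adjusted p = 2.16e-06), or 0.433 times the CTR level, and UBE2H went from rank 9 to rank 22 of the 31 tested E2 genes by FPKM.

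The 4 tested E2 genes of lysine-63 chains and DNA damage tolerance were all downregulated, against 30.5% of all tested genes. The calls of UBE2A and UBE2B were each kept in only 7 of 16 alternative ways of processing the data. UBE2V2 (ENSG00000169139) encodes a partner without an active-site cysteine that pairs with UBE2N to build lysine-63 chains, and it was at 15.66, 14.15 and 13.39 FPKM in CTR and at 8.782, 9.541 and 8.774 FPKM in miR-8485. The groups lay well apart, with a log2 fold change of -0.665 (SE 0.07, limma adjusted p = 0.000164). UBE2N, the catalytic partner, went from 26.1 ± 0.753 to 21.1 ± 0.566 FPKM, with a log2 fold change of -0.30 (SE 0.045, limma adjusted p = 0.000916). UBE2A and UBE2B, close paralogs that work with RAD18 on stalled replication forks, had smaller values. UBE2A was at 13.01 to 14.24 FPKM in CTR and 11.14 to 12.74 FPKM in miR-8485 (log2 fold change -0.18, limma adjusted p = 0.0412), and UBE2B at 17.45 to 20.85 and 16.25 to 17.13 FPKM (-0.19, limma adjusted p = 0.0462).

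Of the 3 E2 genes of protein degradation at the endoplasmic reticulum (ER), 2 were downregulated. UBE2J1, which is anchored in the ER membrane, was at 14.08 to 15.03 FPKM in CTR and at 11.23 to 12.43 FPKM in miR-8485, without overlap (log2 fold change -0.31, limma adjusted p = 0.00219). UBE2G2, which is not anchored in the membrane, went from 16.3 ± 0.232 to 14.6 ± 0.895 FPKM (-0.16, limma adjusted p = 0.0378). UBE2J2, the other membrane-anchored E2, overlapped between the groups at 15.44 to 18.18 and 14.81 to 16.22 FPKM, with a log2 fold change of -0.07 (95% interval -0.24 to 0.10) that turned to 0.0029 without CTR replicate 1.

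UBE2L3, which serves HECT and RBR ligases, ranked 4 by FPKM among the E2 genes in CTR. It was at 54.77, 50.4 and 51.58 FPKM in CTR and at 43.1, 42.83 and 41.71 FPKM in miR-8485, with no overlap and a log2 fold change of -0.295 (limma adjusted p = 0.00106). Its paralog UBE2L6 (ENSG00000156587, chr11:57551656-57568284, minus strand), which carries the interferon-induced modifier ISG15, moved the other way. UBE2L6 was at 11.13, 11.12 and 9.909 FPKM in CTR and at 13.48, 15.5 and 13.98 FPKM in miR-8485. Every miR-8485 library was above every CTR library, with a log2 fold change of 0.41 (SE 0.07, limma adjusted p = 0.00202), the largest rise of an E2 gene.

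Among the 9 broad-range E2 genes, which serve many ligases, UBE2D1 was upregulated, UBE2K and UBE2E2 were downregulated and 6 were neither. UBE2D1 (ENSG00000072401) was at 8.05, 8.262 and 8.717 FPKM in CTR and at 10.97, 10.13 and 10.72 FPKM in miR-8485, with a log2 fold change of 0.34 (SE 0.06, limma adjusted p = 0.00137). UBE2D1 thus lay higher in every miR-8485 library, whereas the more abundant paralogs UBE2D2 and UBE2D3 lay slightly lower in each without passing the threshold. The log2 fold change was -0.10 (95% interval -0.22 to 0.01) for UBE2D2 and -0.11 (-0.21 to -0.01) for UBE2D3. UBE2K, which builds lysine-48 chains, went from 35.1 ± 0.896 to 29.0 ± 0.424 FPKM (-0.27, limma adjusted p = 0.000942). UBE2E2 went from 6.24 ± 0.335 to 5.25 ± 0.523 FPKM (-0.25, limma adjusted p = 0.0362). The values of the remaining broad-range E2 genes overlapped between the groups or missed the threshold, at -0.18 for UBE2D4 (95% interval -0.51 to 0.16), -0.10 for UBE2E1 (-0.23 to 0.03), -0.12 for UBE2W (-0.26 to 0.02) and 0.05 for UBE2E3 (-0.08 to 0.18). On the TPM scale the value of UBE2E3 was -0.0689.

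Of the 4 E2 genes tied to cullin ligases, only UBE2R2 passed the threshold among those tested. UBE2R2, a paralog of CDC34, was at 25.31 to 26.33 FPKM in CTR and 23.27 to 24.29 FPKM in miR-8485 (-0.12, limma adjusted p = 0.0381). UBE2M was at 66.91, 65.82 and 66.6 FPKM in CTR and at 75.32, 68.72 and 68.65 FPKM in miR-8485, and although the groups did not overlap, its log2 fold change of 0.09 (95% interval -0.02 to 0.20) missed the threshold. It was -0.0231 on the TPM scale and 0.11 with quantile normalization, which called UBE2M upregulated (limma adjusted p = 0.0459). UBE2F, the other NEDD8 E2, had a value of -0.21 (-0.44 to 0.02) and UBE2G1, which lengthens lysine-48 chains, of -0.11 (-0.23 to 0.01).

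The large or atypical E2 genes besides UBE2H moved in both directions. UBE2Z (ENSG00000159202), which is charged by the E1 UBA6 and not by UBA1, was at 33.9, 34.27 and 33.17 FPKM in CTR and at 42.58, 45.35 and 43.68 FPKM in miR-8485. The groups were far apart, with a log2 fold change of 0.38 (SE 0.04, limma adjusted p = 0.000225), and UBE2Z went from rank 8 to rank 4 of the tested E2 genes. UBE2Q1 was at 20.17 to 22.29 FPKM in CTR and 15.01 to 17.86 FPKM in miR-8485 (-0.33, limma adjusted p = 0.00788). Its paralog UBE2Q2 and UBE2O, a large enzyme that acts as both E2 and E3, were at -0.09 (95% interval -0.22 to 0.05) and -0.05 (-0.18 to 0.07).

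Of the 16 downregulated E2 genes, 10 stayed called under all 16 alternative ways of processing the data, as did the 3 upregulated ones. The 10 were UBE2C, UBE2H, UBE2J1, UBE2K, UBE2L3, UBE2N, UBE2Q1, UBE2S, UBE2T and UBE2V2. The other 6 calls, among them those of UBE2A, UBE2B, UBE2E2, UBE2G2 and UBE2R2, were each lost in 7 to 10 of the 16 alternatives. Leaving out a single library ended 3 to 6 of these 6 calls, all 6 of them without miR-8485 replicate 2, when 10 E2 genes in all were downregulated, and leaving out any other library left 11 to 13. The highest adjusted p by limma over the alternatives was 0.128 for UBE2A, 0.125 for UBE2B, 0.11 for UBE2E2, 0.128 for UBE2G2 and 0.121 for UBE2R2.

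The 6 remaining E2 genes were below 1 FPKM and were not tested. UBE2V1, the other such partner of UBE2N, was at 0.582 ± 0.0487 FPKM in CTR and 0.577 ± 0.153 FPKM in miR-8485 (n = 3 each), from 41 to 69 fragments per library. In GENCODE 44 its exons overlap those of the readthrough gene TMEM189-UBE2V1 (0 to 0.00673 FPKM on average), and fragments on shared exons could have been left out by the counting, so the level of UBE2V1 is uncertain. The same holds for UBE2F, whose exons overlap those of UBE2F-SCLY, listed with 0 to 3 fragments. UBE2Q2L had 1 to 8 fragments per library, UBE2U 0 to 4 and UBE2L5 0 or 1. UBE2QL1 had 0 fragments in all 6 libraries, which allows at most 0.0365 to 0.0387 FPKM (3 fragments per library, counting error only).

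Paralogs and partners were then compared by the ratio of their FPKM within each library, for 19 pairs. The ratio of the groups did not overlap for 11 pairs. Singly, the groups did not overlap for 66.5% of all tested genes (69.5% of the protein-coding ones), and the share over other gene pairs was not computed. Each of the 11 pairs had the smallest two-sided p that an exact permutation test over 3 against 3 libraries allows, 0.1. Adjusted over the 19 pairs it was 0.173, so no pair could pass 0.05. UBE2C stood at 0.805, 0.832 and 0.825 of UBE2S in CTR and at 0.564, 0.62 and 0.591 in miR-8485, a lower ratio in every miR-8485 library than in any CTR library. UBE2V2 stood at 0.596, 0.561 and 0.502 of UBE2N in CTR and at 0.413, 0.441 and 0.428 in miR-8485. UBE2L3 was 4.92, 4.53 and 5.21 times UBE2L6 in CTR and 3.2, 2.76 and 2.98 times in miR-8485. UBE2D1 stood at 0.224, 0.246 and 0.255 of UBE2D3 in CTR and at 0.342, 0.311 and 0.339 in miR-8485. The ratio overlapped between the groups for UBE2D2 over UBE2D3 (exact p = 0.9), UBE2A over UBE2B (exact p = 1) and UBE2S over UBE2T (exact p = 0.2).

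The seed site TGTGTGT was searched in the canonical 3′ UTR of each gene, where a miRNA usually binds. Of the 31 tested E2 genes, 12 held it (38.7%), against 28.9% of the 10686 tested genes with a 3′ UTR. Of the 12, 7 were downregulated and 1 upregulated, and of the 19 without it, 9 were downregulated and 2 upregulated. Over all tested genes, 44.5% of those with the site and 29.2% of those without were downregulated, and the median 3′ UTR was 2721 bases long with the site and 873 without, so length moved with the site. UBE2H, with the lowest fold change, held 10 overlapping copies in 4205 bases, in the blocks shown above and 2 single copies. UBE2L6, with the highest fold change, held 6 copies in 696 bases. UBE2V2 held 3, and UBE2D2, UBE2L3, UBE2N, UBE2Q2, UBE2R2 and UBE2W held 2 each. UBE2B, UBE2G1 and UBE2G2 held 1 each. The mitotic E2s held none in their canonical 3′ UTRs of 185 bases (UBE2C), 1691 bases (UBE2S) and 178 bases (UBE2T), and UBE2T held 1 in another transcript. A match to the seed is a description of the sequence, and binding was not measured.

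**Figure D4:**
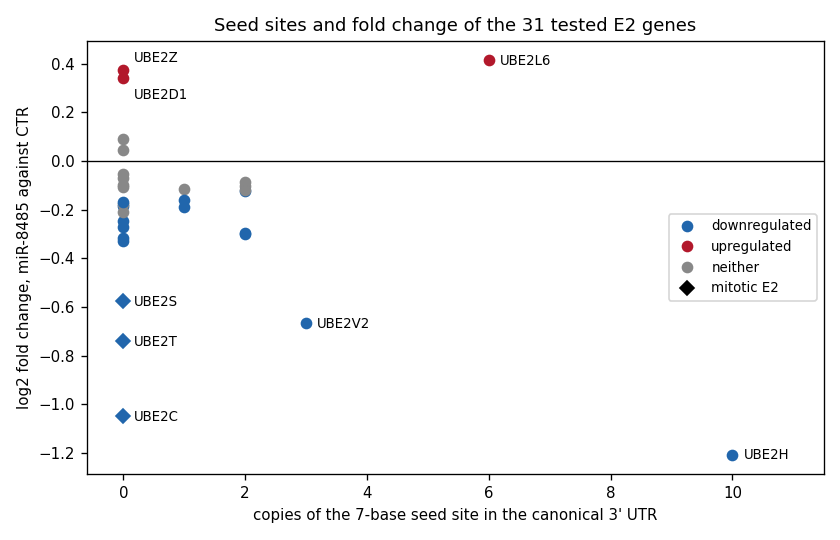
Log2 fold change (vertical axis) against the number of copies of the 7-base seed site in the canonical 3′ UTR (horizontal axis) for the 31 tested E2 genes, with the calls in color and the mitotic E2s as diamonds. UBE2H with 10 copies has the lowest value (-1.21), UBE2L6 with 6 copies the highest (0.41), and UBE2C, UBE2S and UBE2T lie at 0 copies.

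Genes that peak in mitosis often carry CCAAT boxes, bound by NF-Y, and the CHR element TTTGAA in their promoters. The 250 bases before the start site were searched on both strands for CCAAT, for TTTGAA and for the E2F-like word GCGGGAA, whose matches did not overlap in the E2 promoters, in RefSeq's sequences (GRCh38.p14), which matched 24 of the tested E2 genes. The promoters of UBE2S (minus strand, chr19:55407789-55408038) and UBE2T (minus strand, chr1:202341937-202342186) are shown because these mitotic E2s fell, with CCAAT or its reverse complement and TTTGAA in capitals. UBE2C was not matched.
UBE2S promoter: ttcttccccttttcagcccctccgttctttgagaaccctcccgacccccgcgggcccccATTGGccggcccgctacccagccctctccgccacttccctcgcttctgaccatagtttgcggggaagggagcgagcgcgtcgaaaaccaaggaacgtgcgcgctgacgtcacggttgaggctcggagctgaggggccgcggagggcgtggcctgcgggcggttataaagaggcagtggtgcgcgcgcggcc
UBE2T promoter: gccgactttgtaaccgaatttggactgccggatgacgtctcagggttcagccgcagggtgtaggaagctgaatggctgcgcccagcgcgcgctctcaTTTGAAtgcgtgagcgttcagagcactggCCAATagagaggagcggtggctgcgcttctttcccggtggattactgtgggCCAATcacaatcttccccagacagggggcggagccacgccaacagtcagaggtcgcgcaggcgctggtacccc
UBE2T held CCAAT at -124 and -73 and TTTGAA at -153, counted from the start site to the first base of the word, and UBE2S held ATTGG at -191. CCAAT was in 8 of the 24 promoters, and in 32.0% of the 35116 promoters of the table. TTTGAA was in 2 of 24 (UBE2T and UBE2F) and in 13.3% of all promoters, and GCGGGAA in 2 of 24 (UBE2E3 and UBE2L3) and in 5.52%.

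The partners of the E2 enzymes were read from 13 lists of 146 genes, of which 143 were tested, 63 downregulated (44.1%) and 24 upregulated (16.8%). The 60.8% called in either direction was close to the 59.6% over all tested genes, of which 30.5% were downregulated and 29.1% upregulated (33.6% and 28.4% of the protein-coding ones). On the TPM scale 77 were downregulated and 13 upregulated, so that the share upregulated among the called went from 27.6% to 14.4%. The ligase of UBE2C and UBE2S is the APC/C. Of its 17 subunits, activators and inhibitor, 5 were downregulated (29.4%) and 4 upregulated (23.5%), shares near those over all tested genes, with a median log2 fold change of -0.01. Of the 5 downregulated calls, 1 was lost in 6 of the 15 alternatives that tested the gene. CDC20, the activator of APC/C in mitosis, went from 130.8 ± 7.14 to 74.7 ± 4.20 FPKM (-0.81, limma adjusted p = 3.14e-05), and FBXO5, its inhibitor before mitosis, fell by 1.09 on the log2 scale (limma adjusted p = 9.6e-06). The late activator FZR1 was at -0.14 (limma adjusted p = 0.132), the catalytic subunits ANAPC2 and ANAPC11 at -0.01 (limma adjusted p = 0.863) and 0.23 (limma adjusted p = 0.108), and ANAPC13 rose from 14.8 ± 1.80 to 27.6 ± 0.222 FPKM (0.90, limma adjusted p = 7.92e-05).

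Over all tested genes, 30.5% were downregulated and 29.1% upregulated (33.6% and 28.4% of the protein-coding ones). The genes of APC/C substrates, a list chosen with earlier results of these data known, were all downregulated, 16 of 16. This held in the data as processed here and under each of the 16 alternatives. Their median log2 fold change was -0.86. They ranged from ANLN, a scaffold of the cleavage furrow (-1.14, limma adjusted p = 6.53e-06), to cyclin CCNB2 (-0.29, limma adjusted p = 0.00262). In the Fanconi anemia list, the pathway of UBE2T, 6 of 14 were downregulated (42.9%) and 3 upregulated (21.4%), and 1 was upregulated without CTR replicate 3, without miR-8485 replicate 1, without the filter or on the TPM scale. Of the 6 downregulated calls, 1 was lost in 6 of the 15 alternatives that tested the gene. FANCL, the ligase that UBE2T serves, was at 5.42 ± 0.825 and 6.87 ± 0.560 FPKM (0.34, limma adjusted p = 0.0349), a call that was lost in 7 of 16 alternatives, among them without CTR replicate 2 or 3 or miR-8485 replicate 1 or 2 (limma adjusted p up to 0.146). Its substrates FANCI and FANCD2 fell by 1.22 (limma adjusted p = 9.6e-06) and 0.82 (limma adjusted p = 4.76e-05) on the log2 scale. FANCF had the largest rise of the list (0.95, limma adjusted p = 0.0011).

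Of the partners of UBE2H, the 11 genes of the CTLH ligase, 6 were downregulated (54.5%, against 30.5% of all tested genes). A further 3 were upregulated (27.3%), near the 29.1% of all tested genes. MKLN1 had the largest fall (-0.56, limma adjusted p = 0.00146) and YPEL5 the largest rise (0.59, limma adjusted p = 7.23e-05). Of the RING subunits, MAEA (-0.18, limma adjusted p = 0.0151, 0.055 without miR-8485 replicate 3) and RMND5A (-0.48, limma adjusted p = 0.000202) were downregulated. RMND5B, the paralog of RMND5A, was upregulated (0.22, limma adjusted p = 0.0236), a call lost in 5 of 16 alternatives, among them without CTR replicate 3 or miR-8485 replicate 1 or 2 (limma adjusted p up to 0.241). All of these falls were smaller than that of UBE2H itself.

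Of 8 genes listed for the ligases of degradation at the ER and their partners, 6 were downregulated (75.0%), with a median of -0.35. The largest fall was in DERL1 (-1.06, limma adjusted p = 7.87e-06), which does not encode a ligase. Of 8 DNA damage ligases, 4 were downregulated, led by RAD18 (-0.87, limma adjusted p = 0.000217), the partner of UBE2A and UBE2B. Of 18 cullin and neddylation genes, 7 were downregulated (38.9%) and 3 upregulated (16.7%), between DDB1 (-0.91) and DCUN1D4 (0.49). Of 19 HECT and RBR ligases, 7 were downregulated (36.8%) and 2 upregulated (10.5%), between SMURF2 (-0.77) and RBCK1 (0.54), and 1 was upregulated without CTR replicate 1 or 2 or miR-8485 replicate 2 or 3. The downregulated shares of the cullin and of the HECT and RBR genes were near the 33.6% of all tested protein-coding genes. Of 7 SUMO ligases, 3 were downregulated (42.9%) and 1 upregulated (14.3%), between PIAS1 (-0.54) and PIAS3 (0.38). Some calls in these lists depended on the processing. Among the downregulated calls, 1 of the SUMO ligases was lost in 11 of 16 alternatives. In the ER, the cullin and the HECT and RBR lists, 1 downregulated call each was lost in 8 of 16, as was 1 upregulated call of the cullin list. For each of these calls, 4 or 5 of the losses came with a single library left out.

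Upstream of the E2 enzymes, 3 of the 4 ubiquitin precursor genes were upregulated and 1 downregulated, though on the TPM scale 1 of the 4 was upregulated. Over all tested genes, 29.1% were upregulated and 30.5% downregulated. RPS27A, which also encodes a ribosomal protein, had the largest rise of the precursor genes (0.43, limma adjusted p = 0.0023). Of 7 tested E1 genes, 2 were upregulated and 2 downregulated (28.6% each), near the shares over all tested genes. Without CTR replicate 2 or miR-8485 replicate 2 or 3, 1 E1 gene was upregulated. UBA1, the main E1 of ubiquitin, rose from 74.1 ± 5.21 to 91.7 ± 3.65 FPKM (0.31, limma adjusted p = 0.00351). UBA6, the E1 of UBE2Z, was downregulated (-0.35, limma adjusted p = 0.0011) where UBE2Z rose. UBA2, the catalytic subunit of the SUMO E1, fell from 23.4 ± 0.746 to 14.7 ± 0.745 FPKM (-0.66, limma adjusted p = 4.46e-05). The ubiquitin-like modifiers ISG15 (0.42, limma adjusted p = 0.000969) and SUMO2 (0.18, limma adjusted p = 0.00724, 0.343 on the TPM scale) were upregulated and the other 4 of the list were neither, while 4 of the 6 were upregulated without CTR replicate 1. UBA7, the E1 of ISG15, was below the 1 FPKM filter with 26 to 33 fragments per CTR library and 3 to 7 per miR-8485 library, so it lay lower where ISG15 and its E2 gene UBE2L6 lay higher. Of 8 genes with an E2 fold but another name, UFC1 (0.26, limma adjusted p = 0.0328) was upregulated, a call lost in 8 of 16 alternatives and with each library left out but CTR replicate 1 (limma adjusted p up to 0.265). The other 7 were neither, among them CDC34 (66.7 ± 5.44 and 69.1 ± 3.21 FPKM, limma adjusted p = 0.534). FANCD2, MAEA, RMND5A, RMND5B, UBA6, UBA7 and CCNB2 were named after their values were seen.

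**Figure D5:**
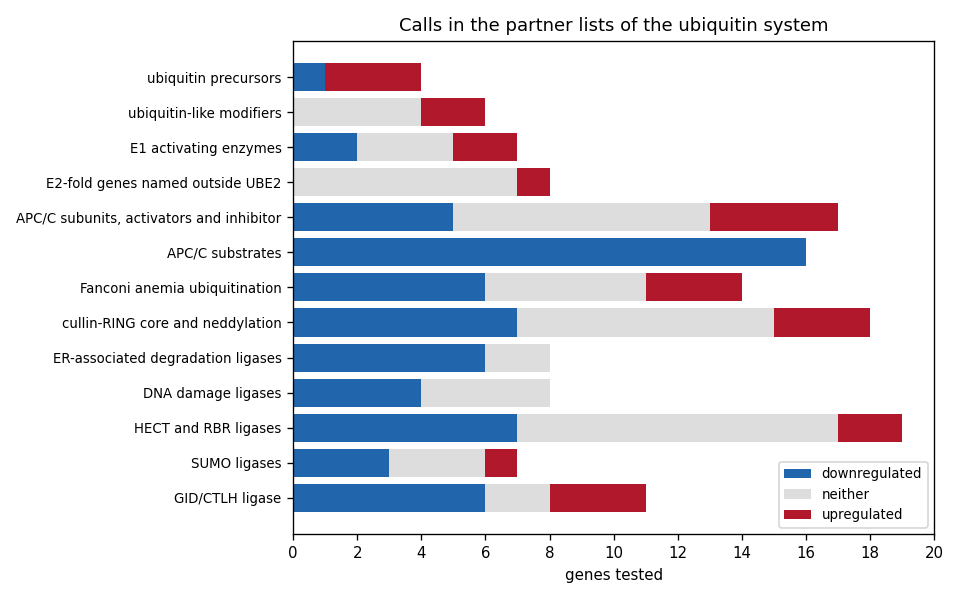
Number of tested genes in each of 13 lists of E2 partners (horizontal axis) that were downregulated (blue), neither (gray) or upregulated (red) in miR-8485 against CTR. The APC/C substrates are downregulated in 16 of 16, while the APC/C genes themselves split into 5 downregulated, 8 neither and 4 upregulated. Over all tested genes 30.5% were downregulated and 29.1% upregulated, and the lists were chosen with earlier results of these data known.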

How the data were processed

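RNA-seq libraries of HCT116 cells, 3 CTR and 3 miR-8485, were grouped by their titles. Reads were trimmed by the authors with fastp and aligned to the hg38 build by HISAT2 (2.0.5), and the authors counted fragments per gene with featureCounts (1.5.0-p3) and deposited FPKM values, and no scaling between libraries was added here. The annotation release and strand setting are not given in the sources used here, so antisense neighbors of a gene cannot be separated. The authors tested counts with DESeq2. Because the table held FPKM, limma (3.58.1, R 4.3.3) with a variance trend was run on log2(FPKM + 0.1) for genes with a mean of at least 1 FPKM, without covariates. All FPKM values were whole fragments once length and library total were divided out (tolerance 0.05), and these fragments gave the depth and a voom fit. Chi-square per gene between libraries was 2.75 to 10.5 within groups and 61.0 to 70.3 between them. On simulated libraries of this comparison (12237 genes), limma recovered 97 of 97 genes changed by 1.2 and 20 of 98 changed by 0.4 on the log2 scale, with 10 false calls.

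The E2 genes, the partner lists and the naming rule were chosen with earlier results of these data known. By that rule, all E2 genes are accounted for (a few genes, 1 E2 gene included, enter the counts but are not reported by name), and each list names its called genes of largest rise and fall, with CDC20, FZR1, FBXO5, ANAPC2, ANAPC11, FANCL and CDC34. MARCHF6 was matched by gene identifier. The alternatives were pseudocounts of 1 and 0.01, no filter, a filter at 5 FPKM, median-of-ratios scaling, TPM, quantile normalization, no variance trend, voom on fragments, a replicate block and each library left out. 3′ UTRs came from GENCODE 44 on GRCh38, and promoters from RefSeq (GRCh38.p14). Other calculations ran in Python 3.11.15 (pandas 2.3.3, numpy 2.4.6, scipy 1.17.1), and plots in matplotlib 3.10.9.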

Additional observations from a re-analysis of the deposited data

How the results depend on the processing

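The 3 upregulated E2 genes kept their calls under each alternative tried, and the count of downregulated E2 genes, 16, was 10 without a variance trend, 11 without the filter, 12 with median-of-ratios scaling, 11 with quantile normalization (and 4 upregulated, with UBE2M), 15 with voom and 24 on the TPM scale. Leaving out 1 library gave 10 to 13 downregulated E2 genes, 10 without miR-8485 replicate 2, and medians between -0.76 and -0.72 for the mitotic E2s and between -0.1575 and -0.1163 for the others, the value nearest 0 without CTR replicate 1. On the TPM scale the medians were -0.8551 and -0.2561, the upregulated partner genes numbered 13, and UBE2M (-0.0231) and UBE2E3 (-0.0689) changed sign. Leaving out 1 library gave UBE2J2 values of -0.1144 to 0.0029, above 0 without CTR replicate 1. The difference between both medians stayed between -0.6278 and -0.5879. With the replicate number as a block, 13 E2 genes were downregulated and 3 upregulated, but the numbers did not pair the libraries (correlation of deviations 0.0668, 0.0335 and -0.064), and 2 of 6 libraries correlated best with their own number. In simulated data limma missed most changes of 0.4 on the log2 scale and voom recovered 62 of 98. Few genes were changed in that simulation, while 59.6% of tested genes were called in the data, so its recovery does not carry over. In the data, the 95% intervals of 10 of the 12 uncalled E2 genes, all but UBE2D4 and UBE2F, lay within 0.4 of 0.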

Other observations

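The table also listed 54 genes of other biotypes whose symbol starts with UBE2, mostly pseudogenes, of which 22 were above 0.1 FPKM in a library and 4 were tested. UBE2SP1, a pseudogene of UBE2S, went from 4.80 ± 0.753 to 3.23 ± 0.652 FPKM (SD, n = 3 each) and was downregulated (limma adjusted p = 0.0197). UBE2V1P2, a pseudogene of UBE2V1, went from 4.07 ± 0.285 to 2.19 ± 0.295 FPKM (limma adjusted p = 0.000389). Both rest on few fragments per library, 49 to 67 in CTR and 31 to 47 in miR-8485 for UBE2SP1, and 31 to 35 and 16 to 20 for UBE2V1P2. UBE2MP1 (limma adjusted p = 0.147) and UBE2D3P1 (limma adjusted p = 0.721) missed the threshold. Reads of such near-identical copies could have been split between gene and pseudogene by the counting, which was not tested. TMEM189, the neighbor of UBE2V1, went from 10.4 ± 0.570 to 7.70 ± 0.619 FPKM (limma adjusted p = 0.00179). MIR8485 was at 0 in all 6 libraries, so these libraries hold no measure of the mimic.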
